A study of Mus musculus with 12 samples.

Results

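The genes described here are 8 surface proteins of developing T cells: Ly6d, Ephb6, Itm2a, Cd2, Cd5, Cd6, Cd27 and Cd28. They were selected from earlier values of these same arrays as surface genes that were lower in lymphomas than in normal thymocytes, out of 19309 genes with a probe set of their own. Each of the 8 was measured by 1 probe set. The lower level in tumors is therefore a description, without a test. The comparison between the 2 kinds of tumor is the one that was tested, and its earlier results were known. The selection did not use that comparison itself. It did use the same tumor values, so the comparison is not independent of the selection. The arrays came from thymus of FVB/N mice. The Dnmt3a-deficient tumors (4 arrays) were T-cell lymphomas of mice whose Dnmt3a gene, for an enzyme that sets new DNA methylation, was deleted in blood cells while MYC was present. The control tumors (5 arrays) were MYC-induced lymphomas labelled wild type in genotype, and both kinds of tumor were taken at the terminal stage. The normal thymocytes (3 arrays) came from wild-type mice without a tumor, at 24 days of age. The sources used here do not give the promoter that drove MYC, the Cre line or any pooling of animals. The labels name no batch. Tumor state, MYC and age differ together between tumors and normal thymocytes and cannot be told apart, and p-values cover only the spread among these arrays, which may not all be separate animals.

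A thymocyte is selected by the signal that its T cell receptor receives from peptides on thymic cells, and several proteins in this group act beside that receptor. CD5 and CD6 are scavenger receptor cysteine-rich proteins that dampen or tune T cell receptor signals, and CD5 on the surface is commonly read as a gauge of how strong that signal was. CD2 is an adhesion receptor that binds CD48 in the mouse, CD28 delivers costimulation on binding CD80 or CD86, and CD27 is a TNF receptor family member that binds CD70. Itm2a encodes a BRICHOS-domain membrane protein that is induced when thymocytes are positively selected, Ephb6 a receptor of the Eph family whose kinase domain is inactive, and Ly6d a GPI-anchored protein of the Ly6 family found on immature lymphoid cells.

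Values are log2 expression, so a difference of 1 is a 2-fold difference, and levels of different probe sets are not set against each other. The median over all probe sets was 6.40 to 6.58 on all 12 arrays. The 75th percentile was 8.50 to 8.60 in Dnmt3a-deficient tumors, 8.25 to 8.54 in control tumors (control tumors 1 and 2 were the highest) and 8.13 to 8.21 in normal thymocytes. Dnmt3a itself averaged 7.42 ± 0.20 in the 4 Dnmt3a-deficient tumors, 8.67 ± 0.53 in the 5 control tumors and 9.48 ± 0.15 in the 3 normal arrays (mean ± SD, as in all such values here), and was lower in deficient than in control tumors by limma (difference -1.25, adjusted p = 0.0317). The mean of 8 defining T cell markers (the CD3 chains, Cd247, Thy1, Cd4, Cd8a and Cd8b1) was 9.96 to 10.86 in Dnmt3a-deficient tumors, 9.96 to 10.99 in control tumors and 11.57 to 11.59 in normal thymocytes. This mean was lower in every tumor than in every normal array, and the 2 tumor groups overlapped. It does not stand for each marker: Cd8a read 7.60 in control tumor 5 and 8.23 in deficient tumor 2, against 12.53 to 12.63 in normal thymocytes. Of those markers, Cd3d, Cd3g and Cd4 fell in deficient tumors (differences from normal thymocytes of -1.49, -0.75 and -1.76), and Cd3d, Cd3g, Cd247, Thy1 and Cd8a fell in control tumors (-1.01, -0.43, -1.38, -0.77 and -2.49). A marker that passed in 1 tumor group alone need not differ between the groups. Cd8a differed by -2.11 in deficient tumors (limma, adjusted p = 0.0617) and by 0.38 between deficient and control tumors (adjusted p = 0.801). The mean of 9 neutrophil markers was 8.37 and 8.38 in control tumors 3 and 4, 5.59 to 6.24 in Dnmt3a-deficient tumors, 5.85 to 6.07 in the other control tumors and 6.77 to 7.20 in normal thymocytes. In bulk samples, fewer cells of a type and less RNA per cell cannot be told apart.

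Ly6d and Ephb6 were the members with the largest difference from normal thymocytes in both kinds of tumor, and their values in the 2 kinds of tumor overlapped. Ly6d read 6.48, 6.62, 7.17 and 6.65 in the 4 Dnmt3a-deficient tumors, 6.65, 6.47, 6.77, 6.84 and 7.41 in the 5 control tumors, and 11.05, 10.76 and 11.11 in normal thymocytes. All 9 tumors lay far below all normal arrays, and the values of the 2 tumor groups were interleaved. The difference from normal thymocytes was -4.24 (SE 0.222) in deficient tumors, or 19.0-fold lower, and -4.14 (SE 0.212) in control tumors, or 17.7-fold lower. Counted from the largest decrease, Ly6d was number 4 and number 2 of the 19309 genes in these 2 contrasts.

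Ephb6 read 7.94, 6.11, 6.19 and 6.93 in Dnmt3a-deficient tumors, 8.54, 7.29, 6.94, 6.98 and 6.81 in the control tumors, and 11.11, 11.13 and 11.21 in normal thymocytes. Its difference from normal thymocytes was -4.36 (SE 0.443; 20.5-fold lower, number 2 of all genes) in deficient tumors and -3.84 (SE 0.424; 14.3-fold lower, number 5) in control tumors. Control tumor 1 stood above the other control tumors, and tumors spread over more than 2 units while the 3 normal arrays differed by about 0.1. The 250 bases upstream of Ephb6 are shown because they are dense in CpG, the dinucleotide that DNA methyltransferases modify. They are on GRCm38.p6 chr6:41605261-41605510, plus strand, from RefSeq, written 5′ to 3′ with each CG in capitals.
Ephb6: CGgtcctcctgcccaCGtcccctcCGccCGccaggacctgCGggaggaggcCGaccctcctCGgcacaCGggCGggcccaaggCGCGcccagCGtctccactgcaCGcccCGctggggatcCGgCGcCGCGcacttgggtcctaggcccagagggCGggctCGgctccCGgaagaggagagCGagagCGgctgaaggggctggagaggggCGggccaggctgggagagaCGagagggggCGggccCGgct
This window holds 27 CpGs, and 91.4% of the 32851 promoter windows of the same length in the table hold fewer. The median window has 6 CpGs, with quartiles of 2 and 16.

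Itm2a, the positive selection gene, had values spread widely over the tumors of both groups. It read 7.19, 8.65, 6.50 and 7.57 in Dnmt3a-deficient tumors, 7.71, 8.45, 10.52, 11.21 and 9.04 in the control tumors, and 11.51, 11.37 and 11.63 in normal thymocytes. Control tumor 4 came within 0.3 of the normal mean, while deficient tumor 3 had the lowest value. The difference from normal thymocytes was -4.02 (SE 0.702; 16.3-fold lower) in deficient tumors and -2.12 (SE 0.671; 4.33-fold lower) in control tumors. The 2 control tumors with the highest Itm2a, 3 and 4, were those with the high neutrophil marker mean; with them left out, the difference between deficient and control tumors was -0.92, against -1.91 with all control tumors. The part of other cells in this difference was not tested. Itm2a lies on the X chromosome, and Xist read 3.90 to 4.49 in Dnmt3a-deficient tumors, 4.42 to 4.68 in control tumors and 4.47 to 5.10 in normal thymocytes, while the Y-linked Eif2s3y read 9.32 to 10.39, 9.06 to 9.69 and 7.19 to 8.38 in the same order; both genes were looked up after the values were seen.

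Cd2 and Cd5 were lower in every tumor than in every normal array. Cd2 read 9.48, 9.73, 7.04 and 7.77 in Dnmt3a-deficient tumors, 10.33, 9.60, 10.82, 10.63 and 10.40 in the control tumors, and 11.96, 11.66 and 11.52 in normal thymocytes. Of the deficient tumors, 3 lay below every control tumor, and deficient tumor 2 overlapped with control tumor 2. Cd2 was 9.26-fold lower than normal thymocytes in deficient tumors (difference -3.21, SE 0.53) and 2.56-fold lower in control tumors (-1.36, SE 0.506).

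Cd5 read 9.52, 10.67, 7.93 and 9.41 in Dnmt3a-deficient tumors, 11.10, 10.85, 10.65, 10.84 and 10.72 in the control tumors, and 11.39, 11.33 and 11.33 in normal thymocytes. The control tumors were close together (SD 0.17, n = 5) and only slightly below the normal arrays, with a difference of -0.52 (SE 0.411; 1.43-fold lower). The deficient tumors were 3.91-fold lower than normal thymocytes (-1.97, SE 0.43) and spread widely (SD 1.12). Cd6, the relative of Cd5, read 7.27, 9.12, 7.09 and 7.28 in Dnmt3a-deficient tumors, 9.17, 8.78, 8.33, 7.93 and 10.49 in the control tumors, and 11.41, 11.28 and 11.23 in normal thymocytes. Deficient tumor 2 stood apart from the other deficient tumors for Cd6 and was also the highest deficient tumor for Cd5. Cd6 was 12.3-fold lower than normal thymocytes in deficient tumors (-3.62, SE 0.552) and 5.16-fold lower in control tumors (-2.37, SE 0.528), so within this pair of relatives Cd6 had the larger difference in both kinds of tumor.

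The 2 costimulatory receptors were the members closest to normal thymocytes in deficient tumors. Cd27 read 8.89, 8.16, 7.88 and 7.89 in Dnmt3a-deficient tumors, 10.20, 9.77, 9.27, 9.54 and 8.73 in the control tumors, and 10.11, 10.14 and 9.98 in normal thymocytes. Control tumor 1 was as high as the normal arrays, and control tumor 5 was the control tumor below deficient tumor 1. Cd27 was 3.67-fold lower than normal thymocytes in deficient tumors (-1.88, SE 0.31) and 1.49-fold lower in control tumors (-0.57, SE 0.296). Cd28 read 9.20, 9.87, 7.86 and 8.89 in Dnmt3a-deficient tumors, 9.26, 8.82, 9.32, 9.75 and 9.77 in the control tumors, and 9.80, 9.48 and 9.96 in normal thymocytes. Both tumor groups overlapped with the normal arrays for Cd28, which differed from them by -0.79 (SE 0.37; 1.73-fold lower) in deficient tumors and -0.36 (SE 0.354; 1.28-fold lower) in control tumors.

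**Figure D1:**
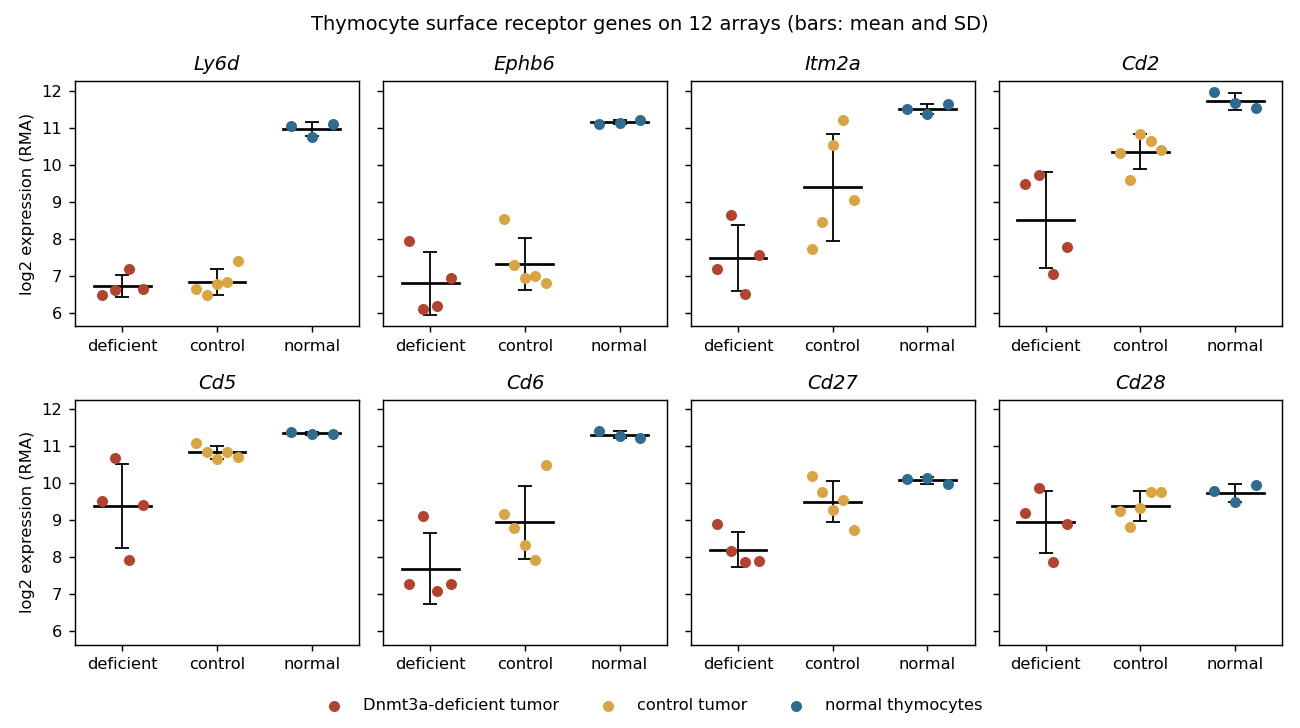
Log2 expression of each of the 8 genes (vertical axis, 1 panel a gene) in 4 Dnmt3a-deficient tumors, 5 control tumors and 3 normal thymocyte arrays; points are arrays and bars are group means with the SD. Ly6d is near 6.7 in all tumors against 10.97 on average in normal thymocytes, while Cd28 overlaps between the 3 groups.

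A description of these genes as lost in lymphoma went further than the arrays for some of them. All 8 genes read above the 95th percentile of 1024 olfactory receptor genes on all 12 arrays. That level was 5.63 to 5.9, and the lowest value of any of the 8 genes was 6.11. In tumors the lowest of the 8 lay 0.34 to 1.01 above that level. The background of the 8 probe sets themselves was not measured. Whether a low signal stands for remaining RNA or for probe background was therefore not settled. In control tumors, Cd5 and Cd27 were within 1 log2 unit of normal thymocytes on average, and Cd28 was so in both groups. Every Dnmt3a-deficient tumor lay below every normal array for 7 of the 8 genes (not Cd28), a pattern that 26.7% of all genes showed, and every control tumor did for 6 of the 8 (not Cd27 and Cd28), which 14.0% of all genes showed. The median difference of the 8 genes from normal thymocytes was -3.41 in deficient and -1.74 in control tumors, beside -0.10 and -0.08 over all genes. These contrasts chose the genes, and nothing is read from those counts.

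The tested comparison was Dnmt3a-deficient against control tumors, whose values also entered the selection of the 8 genes. Cd2, Cd5 and Cd27 lay further below normal thymocytes in deficient tumors (-3.21, -1.97 and -1.88) than in control tumors (-1.36, -0.52 and -0.57). The counts and calls below are therefore not free of the selection. The mean of all 8 genes was lower in deficient tumors, as it was for 51.5% of all genes, and 5 of the 8 (Itm2a, Cd2, Cd27, Cd5 and Cd6) were more than 2-fold lower, as were 174 of all genes (0.901%). With limma and Benjamini-Hochberg adjustment over all genes, 1 of the 8 passed an adjusted p of 0.05, in the direction of lower expression; over all genes, 0.228% were called lower and 0.590% higher in deficient tumors. That gene was Cd27, which fell by 1.30 on the log2 scale (SE 0.272, 95% interval -1.89 to -0.72; 2.47-fold lower; adjusted p = 0.0477). The call lay close to the threshold: without control tumors 3 and 4 the adjusted p was 0.227 and the difference -1.37, and over the 12 fits that each left out 1 array it was 0.0184 to 0.168, with 4 of the 12 passing. It was lost on leaving out deficient tumor 2, 3 or 4, control tumor 3 or 4, or any of the normal arrays (adjusted p 0.0819, 0.158, 0.168, 0.102, 0.117, and 0.0788, 0.0778 and 0.077), whereas the difference stayed between -1.53 and -1.13.

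The next genes in size did not pass. Itm2a differed by -1.91 (SE 0.617, 95% interval -3.24 to -0.58, adjusted p = 0.13), Cd2 by -1.85 (SE 0.465, -2.86 to -0.85, adjusted p = 0.0775) and Cd5 by -1.45 (SE 0.378, -2.26 to -0.63, adjusted p = 0.0861). Cd6 differed by -1.25 (SE 0.485, -2.30 to -0.20, adjusted p = 0.18). Taken as single values, with the 9 tumors split in all 126 ways (exact permutation, two-sided), p was 0.0159 for Cd2 and for Cd5, 0.0238 for Cd27, 0.0635 for Itm2a and 0.103 for Cd6. The same permutation gave 0.365 for Ephb6 and for Cd28, and 0.643 for Ly6d. These p-values are not adjusted for the number of genes. The share of all genes that reach them was not counted, so they do not replace the adjusted test. Leaving out control tumors 1 and 2, whose 75th percentile was like that of deficient tumors, brought Itm2a, Cd2 and Cd5 past the threshold beside Cd27, with adjusted p of 0.00211, 0.012, 0.0446 and 0.0137 in limma. Leaving out control tumors 1 and 2 and leaving out control tumors 3 and 4 moved the calls in opposite directions, and array weights also gave 4 calls. Calls over all genes moved likewise, so the rise was not particular to these receptors. From 158 (44 lower), they went to 4886 (1784 lower) without control tumors 1 and 2. They were 6 (2 lower) without control tumors 3 and 4, and 3328 (1078 lower) with array weights.

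For the other 3 genes the interval shows how much of a difference the arrays could miss. Ly6d differed by -0.10 (95% interval -0.52 to 0.32, adjusted p = 0.801), Cd28 by -0.43 (-1.13 to 0.27, adjusted p = 0.47) and Ephb6 by -0.52 (-1.36 to 0.32, adjusted p = 0.467). The Ly6d interval thus leaves out a 2-fold difference in array signal in either direction, while those of Cd28 and Ephb6 reach past 2-fold lower. Ly6d read 6.47 to 7.41 in the tumors, and signals close to background compress differences. Its interval therefore does not leave out a 2-fold difference in RNA. No gene of the 8 had every deficient tumor below every control tumor, a pattern that 2.35% of all genes showed. Cd27, Cd2, Cd5, Cd6 and Itm2a each had 3 of 4 deficient tumors below every control tumor, and 8.48% of all genes had at least that many.

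**Figure D2:**
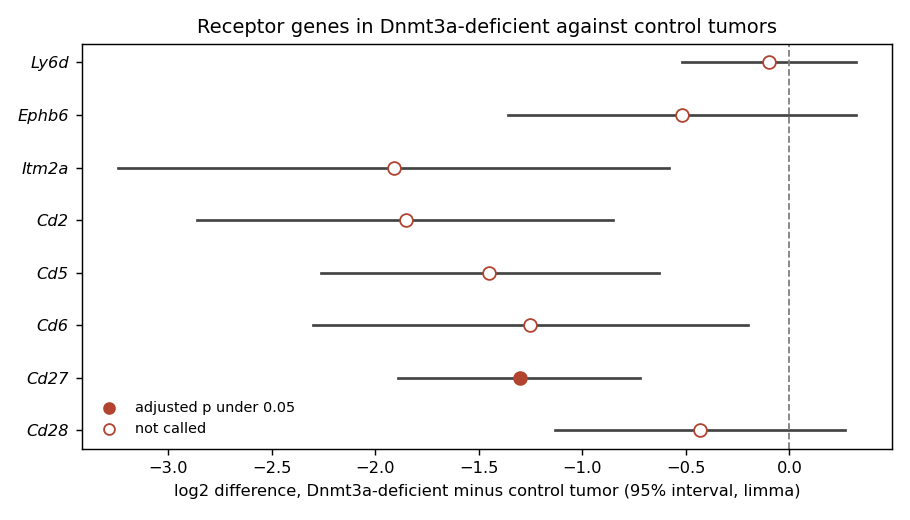
Difference in log2 expression of each gene between Dnmt3a-deficient and control tumors (horizontal axis), with the 95% interval from limma. All 8 points lie below 0, the intervals of Ly6d, Ephb6 and Cd28 span 0, and Cd27 is the gene that passed the adjusted threshold.

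The 9 tumors carried different combinations of these genes. Deficient tumor 3 had the lowest value of all 9 tumors for 6 of the 8 genes (Itm2a, Cd2, Cd5, Cd6, Cd27 and Cd28), with a median change of -4.0 from the normal mean, and all 8 were at least 1 log2 unit below normal. Deficient tumor 4 followed with a median change of -3.94, then deficient tumor 1 with -2.72 and deficient tumor 2 with -2.09. Deficient tumor 2 combined the lowest Ephb6 (6.11) with the highest Cd28 (9.87) of all tumors. Among control tumors the median change was -2.32 in tumor 2, -1.76 in tumor 1, -1.34 in tumor 5, -0.94 in tumor 3 and -0.82 in tumor 4. Control tumor 2 (-2.32) was thus further from normal than deficient tumor 2 (-2.09), and the groups overlapped in this measure. In deficient tumor 3 the T cell marker mean was 10.55, inside the range of the other tumors, and the macrophage marker mean was 8.02, against 7.18 to 7.63 in the other deficient tumors, 6.39 to 8.24 in control tumors and 6.79 to 7.03 in normal thymocytes; its part in the low values was not tested. Control tumor 2 also had an adipocyte marker mean of 8.16, against 5.16 to 5.46 on all other arrays.

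**Figure D3:**
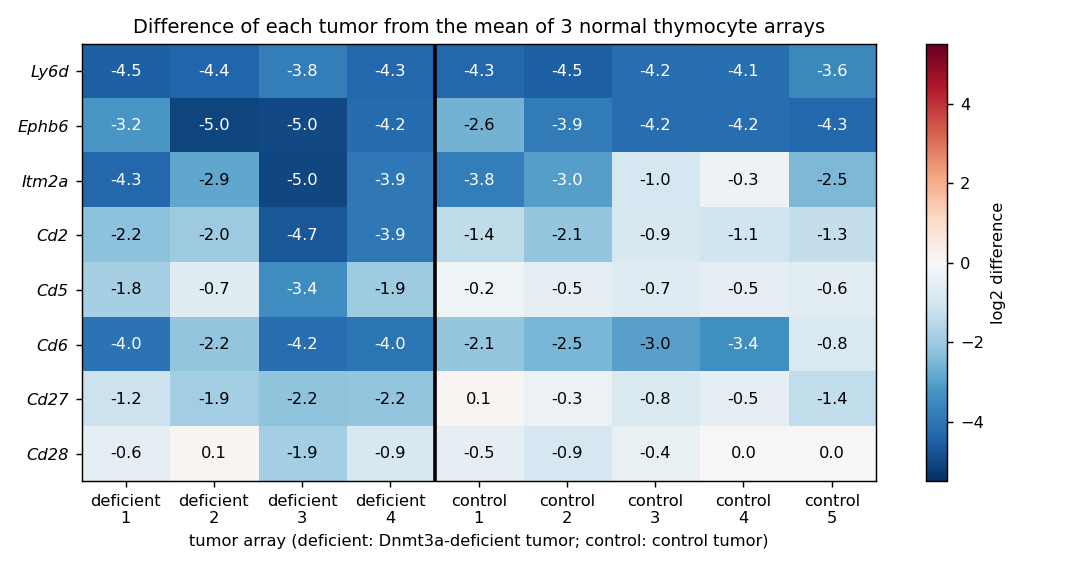
Change in log2 expression from the mean of the normal thymocytes, for each gene (rows) in each of the 4 Dnmt3a-deficient and 5 control tumors (columns). Ly6d and Ephb6 are low in all 9 columns, and Itm2a ranges from about -5 in deficient tumor 3 to -0.3 in control tumor 4.

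Promoter windows were held in the table for 4 of the 8 genes: Ephb6, shown above, Itm2a, Cd5 and Cd27. The other 3 are shown because they belong to genes whose mean was over 2-fold lower in deficient than in control tumors and differ from Ephb6 in CpG content. They are the 250 bases upstream of the start in RefSeq, on GRCm38.p6, all on the minus strand, 5′ to 3′, with each CG in capitals. Itm2a is at chrX:107403361-107403610, Cd5 at chr19:10738975-10739224 and Cd27 at chr6:125237028-125237277.
Itm2a: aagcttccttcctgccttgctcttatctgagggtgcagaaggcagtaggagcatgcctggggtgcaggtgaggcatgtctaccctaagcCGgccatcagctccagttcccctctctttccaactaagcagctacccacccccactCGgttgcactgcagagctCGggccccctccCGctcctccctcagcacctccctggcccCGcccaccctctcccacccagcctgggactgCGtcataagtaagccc
Cd5: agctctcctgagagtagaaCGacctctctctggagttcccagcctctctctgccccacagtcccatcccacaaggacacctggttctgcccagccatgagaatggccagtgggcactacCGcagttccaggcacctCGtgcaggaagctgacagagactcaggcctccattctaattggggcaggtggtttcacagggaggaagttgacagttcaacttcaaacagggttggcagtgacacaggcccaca
Cd27: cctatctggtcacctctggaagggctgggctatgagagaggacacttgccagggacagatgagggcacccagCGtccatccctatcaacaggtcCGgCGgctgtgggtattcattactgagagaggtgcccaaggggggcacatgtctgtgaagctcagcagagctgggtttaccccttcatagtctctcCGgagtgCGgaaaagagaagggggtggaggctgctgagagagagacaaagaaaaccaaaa
Itm2a has 6 CpGs in this window (49.6% of windows have fewer), Cd27 has 5 (44.4%) and Cd5 has 3 (29.0%), with G and C making up 62.8%, 56.0% and 56.8% of the bases, against 76.8% in Ephb6. DNA methylation was not measured here. The windows were searched on both strands for 6 short words: CACGTG (the E-box of MYC and MAX, in 6.02% of all windows), CAGCTG (an E-box of E proteins, 13.0%), TGTGGT (RUNX, 14.0%), CTTTGA (TCF and LEF, 13.8%), AGATAA (bound by GATA factors, 9.99%) and AGGAAG (ETS, 29.5%). AGGAAG occurred 2 times in Itm2a, where the matches overlap each other, and 2 times in Cd5. AGATAA occurred 1 time in Itm2a. Ephb6 and Cd27 held none of the 6 words, which says only that these letters are not in these windows.

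The families, ligands and partners of the 8 genes were counted in 9 lists of 133 measured genes. Against normal thymocytes, 42 of them (31.6%) fell and 9 (6.77%) rose in Dnmt3a-deficient tumors, while 19.0% of all genes fell and 18.7% rose. In control tumors 34 (25.6%) fell and 11 (8.27%) rose, beside 11.3% and 13.0% of all genes. Both contrasts use the same 3 normal arrays and so are not independent. The median over the 133 was -0.32 in deficient and -0.16 in control tumors, against -0.10 and -0.08 over all genes. None of the 133 was called by limma between deficient and control tumors, beside 0.228% of all genes called lower and 0.590% higher. With shares that small, a count of 0 does not set these genes apart. An unadjusted p under 0.05 was found for 31 of the 133, and the share of all genes with one was not counted. The median difference was -0.13, against -0.01 over all genes.

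The CD2 and SLAM list moved both ways. Of 14 genes, 5 rose and 4 fell in deficient tumors, and 5 rose and 3 fell in control tumors. Slamf7, a SLAM family receptor, averaged 7.92 ± 0.31 in Dnmt3a-deficient tumors, 7.32 ± 1.19 in control tumors and 5.53 ± 0.20 in normal thymocytes, and rose in both (by 2.39 and 1.79, adjusted p = 0.00333 and 0.0201). Slamf6 averaged 9.77 ± 0.74 in deficient tumors, 10.51 ± 0.91 in control tumors and 8.39 ± 0.10 in normal thymocytes, and also rose in both (by 1.38 and 2.12, adjusted p = 0.0384 and 0.00438). Cd2ap, which encodes an adaptor that binds the CD2 tail, rose by 2.24 in deficient and 1.68 in control tumors (adjusted p = 0.000617 and 0.00477), while Cd2 itself was lower in both.

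Among 9 scavenger receptor genes and CD6 ligands, none changed in deficient tumors and 1 rose in control tumors. That gene was Alcam, the main ligand of CD6, which read 6.45, 6.74, 6.43 and 7.22 in Dnmt3a-deficient tumors, 7.68, 7.99, 9.32, 9.62 and 6.93 in the control tumors, and 6.15, 5.82 and 6.06 in normal thymocytes. It was higher in control tumors than in normal thymocytes by 2.30 (adjusted p = 0.00363). Its difference from normal thymocytes in deficient tumors was 0.70 (adjusted p = 0.30), and the difference between the tumor groups was -1.60 (adjusted p = 0.103), which did not pass. Control tumors 3 and 4, with the high neutrophil markers, had the highest Alcam too.

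In the list of CD28 relatives and ligands, 1 of 10 genes rose and 2 fell in each tumor group. Icos, a costimulatory receptor related to CD28, fell in deficient and control tumors (differences -1.57 and -1.11, adjusted p = 0.00774 and 0.0486), Tnfrsf14, a receptor for the T cell proteins BTLA and LIGHT, fell in both (-0.92 and -0.69, adjusted p = 0.00545 and 0.0301), and Cd80, a CD28 ligand, rose by 1.11 and 1.25 (adjusted p = 0.0346 and 0.0227). In the CD27 and TNF receptor list, 5 of 12 genes fell and none rose in either group. Tnfrsf9, which encodes the costimulatory receptor 4-1BB, averaged 6.45 ± 0.51 in Dnmt3a-deficient tumors, 6.43 ± 0.38 in control tumors and 8.12 ± 0.26 in normal thymocytes. It fell in deficient and control tumors (differences -1.67 and -1.69, adjusted p = 0.000468 and 0.000458), as did Tnfrsf18, the gene of GITR (-1.54 and -1.43, adjusted p = 0.000191 and 0.000363), and Tnfrsf4, the gene of OX40 (-1.12 and -1.51, adjusted p = 0.000356 and 3.84e-05). Between deficient and control tumors these 3 receptors differed by 0.02, -0.11 and 0.40, none past the threshold, whereas Cd27 differed by -1.30.

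Of 20 Eph receptors and ephrins, 7 fell in deficient and 2 in control tumors, and none rose. Epha2 averaged 7.06 ± 1.10 in Dnmt3a-deficient tumors, 7.79 ± 0.66 in control tumors and 9.15 ± 0.10 in normal thymocytes, and fell by 2.09 in deficient tumors (adjusted p = 0.00531); in control tumors it differed by -1.37 (adjusted p = 0.0531). Efna2, an ephrin, fell in both (-1.23 and -0.92, adjusted p = 0.000702 and 0.00536). Ephb6, for comparison, differed by -4.36 and -3.84. In the Ly6 family, 1 of 22 genes rose and 3 fell in deficient tumors, and 4 fell in control tumors. Cd59a, a GPI-anchored inhibitor of complement, went the opposite way to Ly6d in deficient tumors: it read 7.92, 8.70, 8.45 and 7.79 there, 8.04, 8.27, 6.02, 5.86 and 5.18 in control tumors, and 4.95, 5.26 and 4.86 in normal thymocytes, and rose by 3.19 in deficient tumors (adjusted p = 0.00135), while its difference in control tumors was 1.65 (adjusted p = 0.0588).

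Of 8 genes of the ITM2 and BRICHOS family, 3 fell in both groups. Itm2c, a relative of Itm2a, fell in deficient and control tumors (-1.54 and -0.99, adjusted p = 0.00025 and 0.00592), as did Itm2b (-1.0 and -0.53, adjusted p = 0.000903 and 0.041). The third, Sftpc, a surfactant protein of lung, read 4.43 to 5.62 on all arrays. Of 22 other T cell surface genes, 9 fell in deficient tumors, and 10 fell and 1 rose in control tumors. Cd96, an immunoglobulin family receptor, averaged 6.61 ± 0.38 in Dnmt3a-deficient tumors, 6.91 ± 1.26 in control tumors and 9.34 ± 0.24 in normal thymocytes, and fell in both (-2.73 and -2.43, adjusted p = 0.00213 and 0.00487). Itgb2, the beta chain of the integrin LFA-1, also fell in both (-2.32 and -1.58, adjusted p = 0.000209 and 0.00344). Of 16 intracellular partners, 9 fell and 2 rose in deficient tumors, and 5 fell and 3 rose in control tumors. Prkcq, the gene of protein kinase C theta, which acts downstream of CD28, fell by 1.35 in deficient tumors (adjusted p = 0.047) and differed by -0.41 in control tumors (adjusted p = 0.58). Rasa1, a Ras GTPase-activating protein, rose by 2.12 and 1.61 (adjusted p = 0.000498 and 0.00371), and Cblb, a ubiquitin ligase that restrains CD28-dependent activation, rose by 1.32 in control tumors (adjusted p = 0.0124) with a difference of 0.38 in deficient tumors (adjusted p = 0.436).

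**Figure D4:**
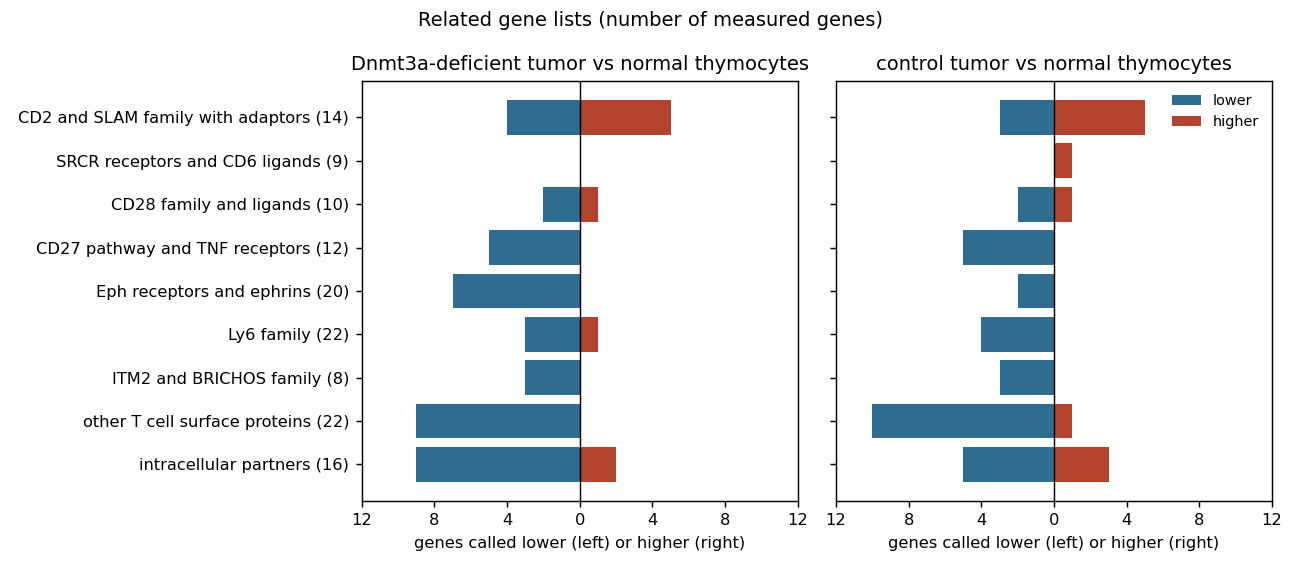
Number of genes called lower (bars to the left) or higher (bars to the right) than in normal thymocytes in each of the 9 related lists. The panels are Dnmt3a-deficient and control tumors, and the number of measured genes follows each list name. The TNF receptor list has 5 genes lower in each panel. The other T cell surface genes have 9 lower in deficient tumors, and 10 lower and 1 higher in control tumors. The CD2 and SLAM list has 5 higher in each panel, with 4 lower in deficient and 3 lower in control tumors.

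The nearest measured genes on the chromosome were read beside the members. Cd5 and Cd6 lie close together on chromosome 19 with 1 measured gene between them, A430093F15Rik, which differed by -1.33 in deficient tumors (adjusted p = 0.0296) and -0.26 in control tumors (adjusted p = 0.701). It read 5.72, 7.50, 5.29 and 5.93 in Dnmt3a-deficient tumors, so deficient tumor 2 was the highest there as for Cd5 and Cd6, against 6.37, 6.91, 7.32, 7.78 and 7.51 in control tumors and 7.47, 7.25 and 7.59 in normal thymocytes. On the outer sides, Vps37c beside Cd5 differed by -0.39 and -0.38 and Slc15a3 beside Cd6 by -0.59 and -0.40, none of them past the threshold. Lynx1, beside Ly6d on chromosome 15 and itself of the Ly6 family, fell in deficient and control tumors (-1.31 and -1.37, adjusted p = 0.000523 and 0.000405). Raph1, beside Cd28 on chromosome 1, rose by 2.48 in deficient tumors (adjusted p = 0.00348) with a difference of 1.39 in control tumors (adjusted p = 0.0726), and Ctla4 on the other side differed by -0.15 and 0.72 (adjusted p = 0.861 and 0.362). Tapbpl beside Cd27 on chromosome 6 fell in both (-1.09 and -0.92, adjusted p = 0.000105 and 0.000411).

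The genes whose profile over the 12 arrays came closest to the mean profile of the 8 were, by root mean square distance after centring each gene, Arhgap4 (0.304), Ltb (0.307), Plekhg2 (0.310), Rasal3 (0.335) and H2-Q4 (0.394). Ltb, the lymphotoxin beta chain, read 7.19, 8.13, 6.48 and 7.28 in Dnmt3a-deficient tumors, 7.76, 7.50, 8.44, 8.84 and 8.14 in the control tumors, and 9.96, 10.16 and 9.98 in normal thymocytes, so that, like Cd2 and Cd5, it was lowest in deficient tumor 3. H2-Q4 belongs to a family of near-identical MHC genes, and its probes may read several of them. The members themselves lay at 0.539 (Cd2), 0.640 (Cd5), 0.690 (Cd6), 0.711 (Cd27), 0.874 (Cd28), 0.937 (Itm2a), 0.995 (Ephb6) and 1.003 (Ly6d) from that mean, so Cd2 was the most typical member and Ly6d the least.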

How the data were processed

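Total RNA from thymus was amplified, labelled with biotin and hybridised to 12 single-channel whole-transcript arrays. The deposited values are log2 expression per probe set, which the authors made with Affymetrix Expression Console (RMA method) according to the submitters' processing notes; the sources used here give no versions. RMA normally equalises the quartiles of arrays, but those of this table differed, and why is not given. The values were used as deposited. Probe sets were named from the platform annotation, and names were updated through RefSeq (GRCm38.p6). Of 23858 probe sets, 20870 had 1 symbol, 1453 several and 1535 none. For the 849 genes with several probe sets, the set with the highest mean was kept, which left 19309 genes.

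All arrays entered 1 limma model of 3 group means (limma 3.58.1, R 4.3.3, with 9 residual and 4.17 prior degrees of freedom), with two-sided tests and Benjamini-Hochberg adjustment over all genes; a gene was called, and is said to have risen or fallen, at an adjusted p under 0.05. The fitting steps were tested on simulated data with independent normal noise for each gene and array. That simulation held no further differences between arrays of a group, so it cannot speak to calls that moved with the arrays used. The number of arrays limits the precision. Groups and replicate numbers came from the sample titles. The members and lists were chosen with earlier results of these data known. Besides the members, the genes named are Dnmt3a, up to 3 called genes of each list with the largest difference, the nearest measured neighbours, the 5 closest profiles and marker genes called between tumor groups; part of these is printed. Alternatives were other scalings, probe set means, array weights, a robust prior, a filter on dim genes, tumors alone, a replicate block, and arrays left out.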

Additional observations from a re-analysis of the deposited data

Results flagged for a closer look

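A single array stood apart from the rest of its group in 10 of 114 groups of 4 or 5 tumors examined, where chance gives about 1 in 20. Deficient tumor 2 did so 4 times: Cd6 read 9.12 there against 7.09 to 7.28 in the other deficient tumors, Tnfrsf9 7.20 against 6.14 to 6.23, Cd8a 8.23 against 10.98 to 11.37, and Cldn4 7.97 against 8.48 to 8.52. In deficient tumor 3, Cblb read 8.93 against 9.19 to 9.23. Among control tumors, Ephb6 read 8.54 in tumor 1 against 6.81 to 7.29 in the others, Ptgfrn (the neighbour of Cd2) read 7.02 in tumor 2 against 6.11 to 6.27, Cd80 read 7.89 in tumor 3 against 5.84 to 6.29, and tumor 5 had Slamf6 at 8.89 against 10.72 to 11.03 and Dnmt3a at 9.57 against 8.19 to 8.58.

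Dnmt3a-deficient and control tumors differed by limma for 4 of the genes named. Cd27 differed by -1.30 (adjusted p = 0.0477) and Dnmt3a by -1.25 (adjusted p = 0.0317). Of the markers of other cell types, Cd79b, a chain of the B cell receptor complex, was higher by 1.63 (adjusted p = 0.0144) and Cldn4, listed for thymic epithelium, by 1.38 (adjusted p = 0.0193). Cd79b averaged 8.49 ± 0.42 in Dnmt3a-deficient tumors, 6.86 ± 0.33 in control tumors and 7.73 ± 0.25 in normal thymocytes, while the mean of all 7 B cell markers was 5.69 to 6.26, 5.38 to 6.18 and 6.07 to 6.13 in the same groups.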

How the results depend on the processing

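Relative to normal thymocytes, no member turned its sign under any of the 23 alternatives run for each tumor group; the difference of Itm2a in control tumors ranged from -3.42 to -1.24 and that of Cd27 from -0.90 to -0.09. Between Dnmt3a-deficient and control tumors, calls depended on which arrays were used; the cause was not tested. Members called (1 as reported) numbered 4 with array weights, 4 without control tumors 1 and 2, 0 without control tumors 3 and 4, 0 with the tumors alone, and 0 to 2 on leaving out each array in turn. All genes called there (158 as reported) numbered 3328 with array weights, 4886 without control tumors 1 and 2, 6 without control tumors 3 and 4, 82 without control tumors 3 to 5, 378 after median centring, 1 with the tumors alone, and 16 to 1482 on leaving out each array. Related genes called there (0 as reported) numbered 23 with array weights, 31 without control tumors 1 and 2, 2 without control tumors 3 to 5, 1 each with cyclic loess, median centring and the dimmest genes left out, and 0 to 5 on leaving out each array. Related genes called in control tumors against normal thymocytes (45 as reported) numbered 28 to 49 on leaving out each array, the lowest without normal array 1. The split of genes higher and lower in deficient tumors, 114 and 44 as reported, was 331 and 47 after median centring, 66 and 45 after quantile normalization and 93 and 64 after cyclic loess; against normal thymocytes it was 3602 and 3660 as reported and 3922 and 2571 after median centring. Cd27 was called in 14 of 24 alternatives (adjusted p 0.00813 to 0.227; 0.129 with the tumors alone), Cd2 in 4, Itm2a and Cd5 in 3, and Cd6, Ephb6, Ly6d and Cd28 in none. The small Ly6d difference turned to 0.17 without control tumors 3 to 5, 0.05 with the replicate block, and 0.05 without control tumor 5 (range -0.25 to 0.05 on leaving out each array). Deviations from the group means correlated at -0.134 to 0.338 between same-numbered arrays and at -0.319 to 0.209 between arrays with different numbers. The highest value was that of control tumor 1 with deficient tumor 1. These values cannot settle whether the numbers pair arrays. A replicate block, which leaves control tumor 5 without a partner, gave 104 genes called by limma between the tumor groups. Among them were 1 member (Cd27, adjusted p = 0.0211) and 1 related gene. Array signals close to background compress differences of genes that are low in tumors.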
